A study of Saccharomyces cerevisiae with 12 samples.

Results

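Transcript levels of 10 genes of trehalose and glycogen metabolism were examined among the 7126 genes measured in budding yeast with and without the SUMO protease Ulp2. The genes were chosen by name for the enzymes they encode: trehalose synthesis (TPS1, TPS2, TPS3, TSL1), trehalose breakdown (NTH1, NTH2), glycogen synthesis (GSY1, GSY2, GLC3) and glycogen breakdown (GPH1). RNA was sequenced from 12 libraries in 4 groups of 3: ulp2 null cells at 500 generations (ulp2 null 500G), ulp2 null cells at 50 generations (ulp2 null 50G), WT cells at 500 generations (WT 500G) and WT cells at 50 generations (WT 50G). Every group had the MHY1379 background, a MATa strain that lacks the chromosomal ULP2 gene (ulp2Δ::HIS3) and carries ura3-52, trp1-1, lys2-801, his3-Δ200 and a leu2 allele. "WT" therefore means ulp2Δ cells with ULP2 on the plasmid YCplac33, and "ulp2 null" means ulp2Δ cells with the empty YCplac33 plasmid. During long-term passaging, cultures in YPD medium at 30 °C reached stationary phase each day before dilution. The paper counts about 50 generations for plasmid eviction on selective plates and retransformation, before that passaging. By this account the groups at 500 and 50 generations differ in daily stationary phase as well as in generations. The paper reports an extra copy of chromosomes I and XII in cells newly without Ulp2, and the loss of both on extended passaging. It also lists mutations in passaged cells, in UBC9 and IFM1 without Ulp2 and in BUB1 with it. The groups may thus differ in chromosome number and in these genes, as well as in plasmid and passage. Chromosome copy number and mutations were not measured here. RNA was taken in mid-exponential growth. The sources used here do not say whether replicates came from separately passaged lines, so p-values measure the spread between these libraries, which may be technical.

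Trehalose and glycogen are the storage carbohydrates of yeast. Both are built from UDP-glucose, both accumulate when nutrients run short or cells are stressed, and both are consumed when growth resumes. Tps1 joins glucose 6-phosphate and UDP-glucose into trehalose 6-phosphate, Tps2 removes the phosphate, and Tps3 and Tsl1 are regulatory subunits of the same complex. Nth1 is the neutral trehalase and Nth2 its paralog. Gsy1 and Gsy2 are the isoforms of glycogen synthase, Glc3 is the branching enzyme, and Gph1 is glycogen phosphorylase, which releases glucose 1-phosphate. Many of these genes are induced through the stress response element, a short promoter sequence bound by the transcription factors Msn2 and Msn4, and are held down by protein kinase A during rapid growth.

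A window of 500 bases before each start codon was searched on both strands for CCCCT, the stress response element, and for AGGGAT, the core of the post-diauxic shift element bound by Gis1. Among 6000 windows of the same length before coding sequences of the R64 reference, 34.1% held at least 1 CCCCT, 8.13% at least 2, 1.83% at least 3, 0.45% at least 4 and 0.2% at least 5. TPS1 had 6 matches, TSL1 5, TPS2 4, NTH1 and GLC3 3 each, and TPS3, GSY1, GSY2 and GPH1 2 each. NTH2 had 0. AGGGAT was found once each before TPS1 and TPS2, against 15.4% of all windows with at least 1. Stretches are printed for TPS1 and TPS2, which changed in the same direction in 3 comparisons, for TPS3, which changed in the other direction between passages, and for GLC3 and GPH1, whose change between passages differed most between the strains. Each holds all CCCCT matches of its window, 5′ to 3′ on the strand of the gene, with CCCCT or its reverse complement AGGGG and any AGGGAT in capitals. They were read from the RefSeq copy of the R64 genome.

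TPS1, chrII:490607-490884 (- strand): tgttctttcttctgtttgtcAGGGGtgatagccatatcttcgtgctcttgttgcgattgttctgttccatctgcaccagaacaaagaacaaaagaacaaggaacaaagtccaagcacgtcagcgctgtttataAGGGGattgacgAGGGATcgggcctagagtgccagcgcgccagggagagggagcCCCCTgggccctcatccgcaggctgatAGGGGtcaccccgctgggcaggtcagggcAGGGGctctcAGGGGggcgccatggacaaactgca
TPS2, chrIV:593393-593609 (+ strand): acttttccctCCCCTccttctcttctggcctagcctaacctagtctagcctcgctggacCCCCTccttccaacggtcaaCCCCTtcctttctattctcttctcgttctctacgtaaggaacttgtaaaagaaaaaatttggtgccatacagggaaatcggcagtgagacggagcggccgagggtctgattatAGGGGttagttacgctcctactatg
TPS3, chrXIII:793562-793624 (- strand): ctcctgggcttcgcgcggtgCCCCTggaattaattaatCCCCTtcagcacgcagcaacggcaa
GLC3, chrV:132726-132931 (+ strand): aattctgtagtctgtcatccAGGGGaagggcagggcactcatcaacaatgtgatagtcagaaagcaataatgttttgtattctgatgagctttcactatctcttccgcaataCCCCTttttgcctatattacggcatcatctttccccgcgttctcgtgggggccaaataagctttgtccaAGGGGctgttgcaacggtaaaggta
GPH1, chrXVI:860929-861004 (+ strand): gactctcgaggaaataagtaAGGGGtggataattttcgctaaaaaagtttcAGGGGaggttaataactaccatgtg

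The TPS1 matches lay between 472 and 235 bases before the start codon, with the AGGGAT match at 347 to 342, between the CCCCT matches. The TPS2 matches lay farther out, between 490 and 304 bases, and its AGGGAT match at 211 to 206 lay outside the stretch shown. A match is a run of letters and says nothing of binding in these cells.

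**Figure D1:**
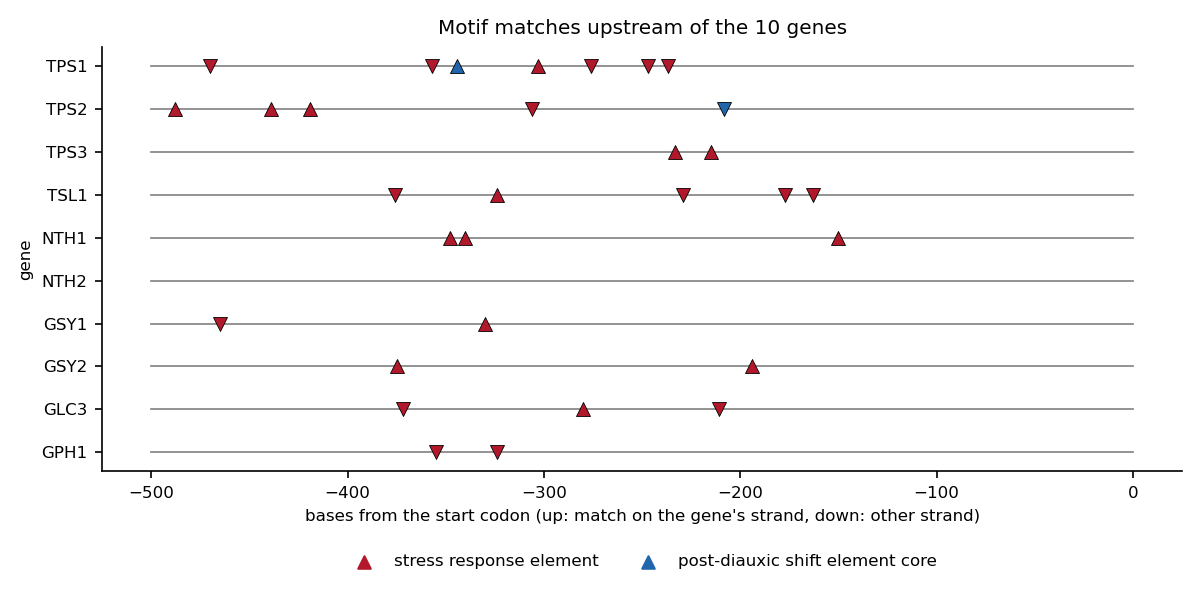
Each line is the 500 bases before the start codon of 1 gene, with position in bases on the x axis. Red triangles are stress response element matches and blue triangles post-diauxic shift element cores, pointing up on the strand of the gene and down on the other strand. TPS1 has 6 red triangles and NTH2 has 0.

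ULP2 itself read between 0 and 0.995 FPKM in the ulp2 null libraries and between 162 and 217 FPKM in the WT libraries, as labelled. FPKM counts fragments relative to transcript length and to all mapped fragments, so it can be compared between genes. The MATa receptor gene STE2 read 20.5 to 53.0 FPKM and the MATalpha receptor gene STE3 read 3.91 to 11.6 FPKM. The MATa pheromone genes MFA1 and MFA2 read 296 to 1165 FPKM, against 1.67 to 18.4 FPKM for MF(ALPHA)1 and MF(ALPHA)2, as the mating type of the strain has it. BAR1, a further MATa gene, read 9.52 to 22.8 FPKM, and the sporulation genes IME1, IME2, NDT80, SPO11 and SPS1 read between 5.10 and 259.8 FPKM, with IME1 the highest of them. The table holds no counts and the paper gives only an average number of reads, so the depth of each library is unknown. Values are averages over all cells of a culture, so fewer cells expressing a gene and less RNA per cell cannot be told apart.

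All 10 genes were expressed in every library and passed the filter (mean FPKM of 1 or more), which left 6572 genes in all. Their coding sequences, with 73.2% identical bases between GSY1 and GSY2, 72.2% between NTH1 and NTH2 and 66.5% between TPS3 and TSL1, share no stretch of 45 bases with any other place in the genome, and 45 bases was the shortest read the authors kept. None overlaps an annotated gene. In WT 50G cells the order of mean levels was TPS1 (632 FPKM), GLC3 (483), GSY2 (319), GPH1 (273), NTH1 (213), TSL1 (178), TPS2 (165), GSY1 (125), NTH2 (49.3) and TPS3 (43.6). TPS1 thus stood above 95.7% of the tested genes and TPS3 above 48.6%. In ulp2 null 500G cells GLC3 came first, with 732 FPKM, followed by TPS1 with 632 FPKM. The 10 genes summed to 2941 to 3006 FPKM in ulp2 null 500G, 2163 to 2402 FPKM in ulp2 null 50G, 2671 to 3019 FPKM in WT 500G and 2373 to 2665 FPKM in WT 50G libraries.

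**Figure D2:**
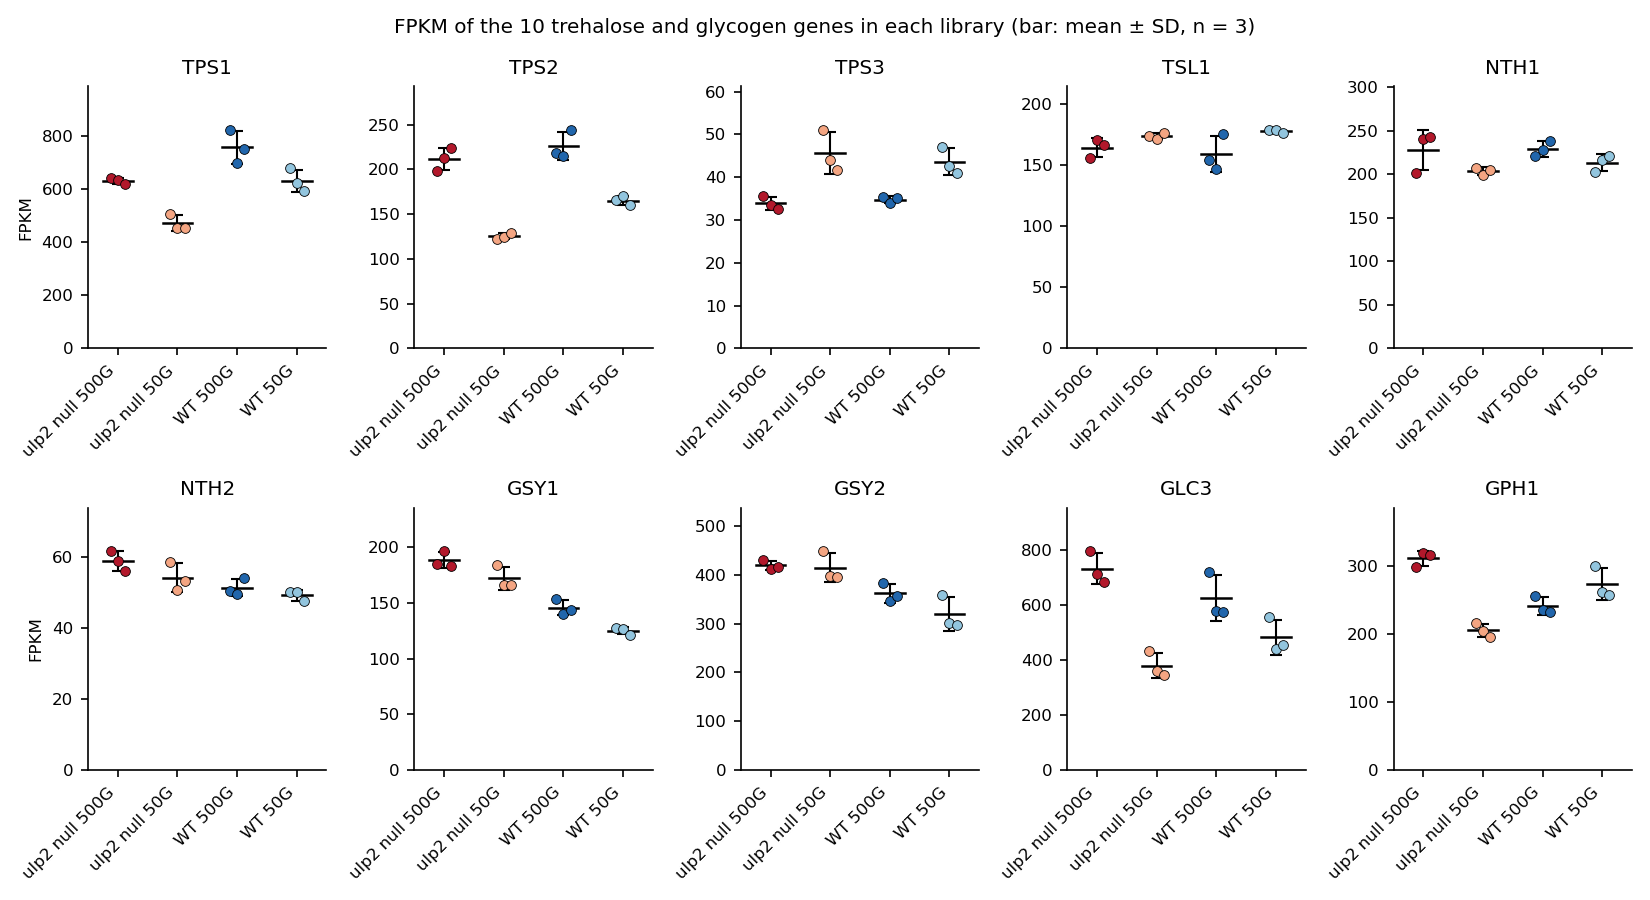
FPKM of each gene (y axis, from 0) in each library (points), by group on the x axis, with the mean and SD of 3 libraries as bars. TPS1, TPS2, GLC3 and GPH1 have their lowest mean in ulp2 null 50G cells, and TPS3 has its 6 lowest libraries at 500G.

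The catalytic genes of trehalose synthesis were lowest in ulp2 null 50G cells. TPS1 (YBR126C, chromosome II, 488905 to 490392) read 643, 634 and 619 FPKM in ulp2 null 500G libraries, 508, 455 and 455 FPKM in ulp2 null 50G, 825, 699 and 752 FPKM in WT 500G, and 679, 622 and 595 FPKM in WT 50G. The ulp2 null 50G libraries lay below all others and the WT 500G libraries above all others, while ulp2 null 500G overlapped WT 50G. TPS1 fell in ulp2 null 50G against WT 50G by 0.42 on the log2 scale (SE 0.0796, adjusted p = 0.00185), to 0.748 of the WT mean. It rose by 0.42 between ulp2 null 50G and 500G cells (SE 0.0796, adjusted p = 0.00118) and by 0.26 between WT 50G and 500G cells (adjusted p = 0.0237). The WT change did not hold in every refit, as given with that comparison. In ulp2 null 500G against WT 50G cells the log2 change was 0.0019, with a 95% interval of -0.17 to 0.18.

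TPS2 (YDR074W, chromosome IV, 593893 to 596583) read 198, 213 and 224 FPKM in ulp2 null 500G libraries, 122, 125 and 129 FPKM in ulp2 null 50G, 219, 215 and 244 FPKM in WT 500G, and 166, 169.8 and 159.8 FPKM in WT 50G. The 500G groups overlapped each other and lay above WT 50G, which lay above ulp2 null 50G. Against WT 50G, TPS2 fell by 0.40 on the log2 scale in ulp2 null 50G cells (SE 0.0692, adjusted p = 0.00102). It rose by 0.75 between the ulp2 null passages (adjusted p = 7.54e-06), to 1.69 times the 50G mean, and by 0.45 between the WT passages (adjusted p = 0.000533). With every library scaled to an equal FPKM sum the WT value was 0.086 (adjusted p = 0.519), which missed the threshold. Within a library the ratio of TPS2 to TPS1 averaged 0.335 ± 0.0265 for ulp2 null 500G, 0.266 ± 0.0225 for ulp2 null 50G, 0.299 ± 0.0307 for WT 500G and 0.262 ± 0.0153 for WT 50G (mean ± SD, n = 3). The ulp2 null 500G libraries were above both 50G groups in this ratio, and WT 500G overlapped WT 50G. Such ratios do not depend on the scaling between libraries. They were chosen after the values were seen and are given with no test.

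The regulatory subunits did not follow. TPS3 (YMR261C, chromosome XIII, 790205 to 793369) read 35.6, 33.6 and 32.7 FPKM in ulp2 null 500G libraries, 51.1, 44.1 and 41.7 FPKM in ulp2 null 50G, 35.3, 33.9 and 35.1 FPKM in WT 500G, and 47.1, 42.5 and 41.0 FPKM in WT 50G. All 500G libraries lay below all 50G libraries, and the strains overlapped at each passage. TPS3 fell between the ulp2 null passages by 0.41 on the log2 scale (SE 0.0824, adjusted p = 0.00169) and between the WT passages by 0.31 (adjusted p = 0.0116). TSL1 (YML100W, chromosome XIII, 70624 to 73920) read 156, 171 and 166 FPKM in ulp2 null 500G libraries, 173, 171 and 176 FPKM in ulp2 null 50G, 154, 147 and 176 FPKM in WT 500G, and 179, 178 and 177 FPKM in WT 50G. TSL1 passed the test in none of the 6 comparisons, and its log2 changes ran from -0.16 to 0.083. TPS3 and TSL1 together made up 18.5% to 19.4% of the FPKM of the 4 synthase genes in ulp2 null 500G libraries, 26.3% to 27.2% in ulp2 null 50G, 15.4% to 17.5% in WT 500G and 21.1% to 22.4% in WT 50G. These ranges did not overlap between any groups.

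Of the trehalase genes, NTH2 passed the test in 1 comparison and NTH1 in none. NTH1 (YDR001C, chromosome IV, 450220 to 452475) read 202, 240.1 and 243 FPKM in ulp2 null 500G libraries, 208, 199 and 204 FPKM in ulp2 null 50G, 221, 228 and 239 FPKM in WT 500G, and 203, 216 and 222 FPKM in WT 50G. The groups overlapped in each of the 5 comparisons between groups. NTH1 passed the test in none of the 6 comparisons, and its largest log2 change was 0.16 between the ulp2 null passages, with a 95% interval of -0.014 to 0.33. NTH2 (YBR001C, chromosome II, 238941 to 241283) read 61.6, 59.0 and 56.0 FPKM in ulp2 null 500G libraries, 58.7, 50.8 and 53.2 FPKM in ulp2 null 50G, 50.5, 49.6 and 54.0 FPKM in WT 500G, and 50.1, 50.3 and 47.5 FPKM in WT 50G. Each group overlapped the next in this order of means. NTH2 rose in ulp2 null 500G against WT 50G cells by 0.25 on the log2 scale (SE 0.0693, adjusted p = 0.018). With equal FPKM sums that value was -0.046, which is 0.27 above the median of all genes under the same scaling.

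For both glycogen synthase genes all ulp2 null libraries lay above all WT libraries. GSY1 (YFR015C, chromosome VI, 174265 to 176391) read 185, 197 and 184 FPKM in ulp2 null 500G libraries, 184, 166 and 166 FPKM in ulp2 null 50G, 154, 140.3 and 143 FPKM in WT 500G, and 127, 126 and 122 FPKM in WT 50G. The ulp2 null groups overlapped each other, and WT 500G lay above WT 50G. GSY1 rose in ulp2 null 50G against WT 50G cells by 0.46 on the log2 scale (SE 0.0643, adjusted p = 0.00025), to 1.38 times the WT mean. At 500G it rose against WT 500G by 0.37 (SE 0.0643, adjusted p = 0.00567), or 1.29 times. Between the ulp2 null passages the change was 0.13 with a 95% interval of -0.014 to 0.27, and the libraries overlapped.

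GSY2 (YLR258W, chromosome XII, 660716 to 662833) read 429.8, 413 and 416 FPKM in ulp2 null 500G libraries, 448, 398 and 396 FPKM in ulp2 null 50G, 384, 346 and 356 FPKM in WT 500G, and 359, 301 and 297 FPKM in WT 50G. The passages overlapped within each strain. GSY2 rose in ulp2 null 50G against WT 50G cells by 0.38 on the log2 scale (SE 0.0851, adjusted p = 0.00502). In that comparison 425 of the 511 tested genes of chromosome XII rose, with a median log2 change of 0.68, while on chromosome VI, which holds GSY1, 18 of 127 rose and the median was -0.083. Chromosome XII is among those the paper reports as duplicated in cells newly without Ulp2. The part of the whole-chromosome change in the GSY2 value was not tested. In ulp2 null 500G against WT 50G cells the chromosome XII median was 0.011 and GSY2 rose by 0.40 (SE 0.0851, adjusted p = 0.00484). At 500G, ulp2 null against WT gave 0.21 (SE 0.0851, adjusted p = 0.141). Between the ulp2 null passages the chromosome XII median was -0.73, and GSY2 changed by 0.021 with a 95% interval of -0.17 to 0.21. The GSY1 to GSY2 ratio averaged 0.449 ± 0.024 for ulp2 null 500G, 0.416 ± 0.00473 for ulp2 null 50G, 0.403 ± 0.00221 for WT 500G and 0.395 ± 0.0351 for WT 50G (mean ± SD, n = 3).

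The branching enzyme gene was, unlike the synthase genes, lowest in ulp2 null 50G cells. GLC3 (YEL011W, chromosome V, 133120 to 135234) read 796, 715 and 686 FPKM in ulp2 null 500G libraries, 434, 362 and 345 FPKM in ulp2 null 50G, 722, 578 and 576 FPKM in WT 500G, and 556, 439 and 455 FPKM in WT 50G. The ulp2 null 50G libraries lay below all others, WT 50G lay next, and the 500G groups overlapped. GLC3 rose between the ulp2 null passages by 0.95 on the log2 scale (SE 0.127, adjusted p = 0.000111), to 1.93 times the 50G mean, the largest change of the 10 genes in any comparison. Against WT 50G, ulp2 null 50G gave -0.34 (SE 0.127, adjusted p = 0.0552), which missed the threshold although the libraries did not overlap. In each group replicate 1 was the highest library for GLC3, as it was for TPS1, TPS3 and GSY2, while 12.5% of all tested genes had replicate 1 highest in all 4 groups.

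GPH1 (YPR160W, chromosome XVI, 861306 to 864014), the glycogen-degrading gene, read 299, 318 and 315 FPKM in ulp2 null 500G libraries, 215, 205 and 196 FPKM in ulp2 null 50G, 256, 235 and 232 FPKM in WT 500G, and 300.1, 261 and 257 FPKM in WT 50G. The order was ulp2 null 500G and WT 50G, which overlapped, then WT 500G, then ulp2 null 50G. GPH1 fell in ulp2 null 50G against WT 50G cells by 0.41 on the log2 scale (SE 0.0751, adjusted p = 0.00153), to 0.752 of the WT mean. Between the ulp2 null passages it rose by 0.60 (SE 0.0751, adjusted p = 7.3e-05). At 500G it rose in ulp2 null against WT cells by 0.37 (SE 0.0751, adjusted p = 0.0124). Between the WT passages the change was -0.18 (SE 0.0751, adjusted p = 0.0805), with the WT 500G libraries below the WT 50G libraries.

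GPH1 and GLC3 were also set against the glycogen synthase genes within each library. GPH1 relative to GSY1 plus GSY2 was 0.486, 0.522 and 0.526 for ulp2 null 500G libraries, 0.340, 0.363 and 0.348 for ulp2 null 50G, 0.476, 0.482 and 0.464 for WT 500G, and 0.617, 0.613 and 0.615 for WT 50G. No groups overlapped, and the ulp2 null 50G mean was 0.57 of the WT 50G mean. GLC3 relative to GSY1 plus GSY2 was 1.30, 1.17 and 1.14 for ulp2 null 500G libraries, 0.686, 0.641 and 0.614 for ulp2 null 50G, 1.34, 1.19 and 1.15 for WT 500G, and 1.14, 1.03 and 1.09 for WT 50G. The ulp2 null 50G libraries stood apart from the other 9, and the 500G groups overlapped. An exact two-sided permutation test of 3 against 3 libraries cannot give a p below 0.1, and these ratios were also chosen after their values were seen.

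**Figure D3:**
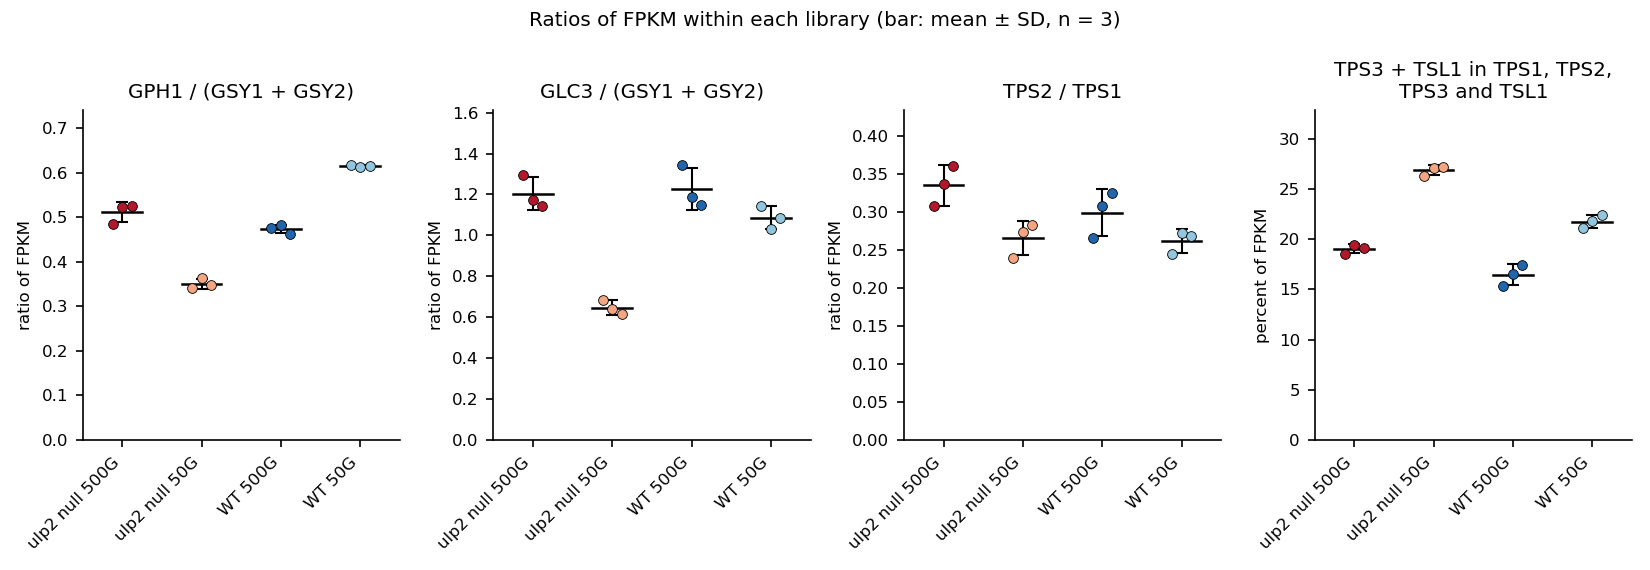
Ratios of FPKM within each library (points) by group, with mean and SD of 3 libraries (bars); the last panel is in percent. The ulp2 null 50G libraries are lowest in the ratios of GPH1 and GLC3 to the glycogen synthases and highest, at 26.3% to 27.2%, in the share of TPS3 plus TSL1.

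Loss of Ulp2 at low passage, ulp2 null 50G against WT 50G, was accompanied by opposite changes in the pathway. GSY1 and GSY2 rose and TPS1, TPS2 and GPH1 fell, so that 2 of the 10 genes rose and 3 fell. The median of the 10 log2 changes was -0.050, against -0.016 for all tested genes. Of all 6572 tested genes 18.7% rose and 18.1% fell, and the share of members that rose is near that background. Among 22 further genes of the pathways, 2 rose and 8 fell. GLG2, a glycogenin that primes glycogen synthesis, fell by 1.01 on the log2 scale (SE 0.0693, adjusted p = 2.2e-06), and the debranching enzyme gene GDB1 fell by 0.53 (adjusted p = 0.000176). GAC1 and PIG2, which target the phosphatase Glc7 to glycogen synthase, fell by 0.45 and 0.27, while PIG1, a related subunit, rose by 0.59. PIG1 and DCS1, a scavenger decapping enzyme gene that also rose, both lie on chromosome XII. PHO85, DCS2 and the 14-3-3 genes BMH1 and BMH2, whose products bind Nth1, fell as well. PIG2 kept its call in 14 and BMH2 in 16 of 20 refits.

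Of 14 regulators, 2 rose and 3 fell in the same comparison, near the shares of all tested genes (18.7% and 18.1%). The PAS kinase genes PSK1 and PSK2 rose by 0.53 and 0.58, with PSK1 on chromosome I, where the median log2 change was 0.58, and PSK2 on chromosome XV. SNF1 and SNF4, subunits of the yeast AMP-activated kinase, fell by 0.41 and 0.48. TPK2, a catalytic subunit of protein kinase A, fell by 0.24 (adjusted p = 0.0438), with overlapping libraries and the call kept in 9 of 20 refits. Of 12 stress reporters outside the pathway, 4 rose and 7 fell. Their summed level was 21270 to 23420 FPKM in ulp2 null 50G libraries, against 31560 to 34050 FPKM in WT 50G libraries, with HSP12 the largest part. The chaperone genes HSP104 (1.13), HSP42 (0.58) and HSP78 (0.39) rose on the log2 scale, while the heat shock genes HSP26 and HSP12 fell by 0.51 and 0.68. HSP104 lies on chromosome XII, where the median log2 change was 0.68. CTT1, a catalase gene, fell by 0.83. The part of these stress responses in the changes of the 10 genes was not tested.

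**Figure D4:**
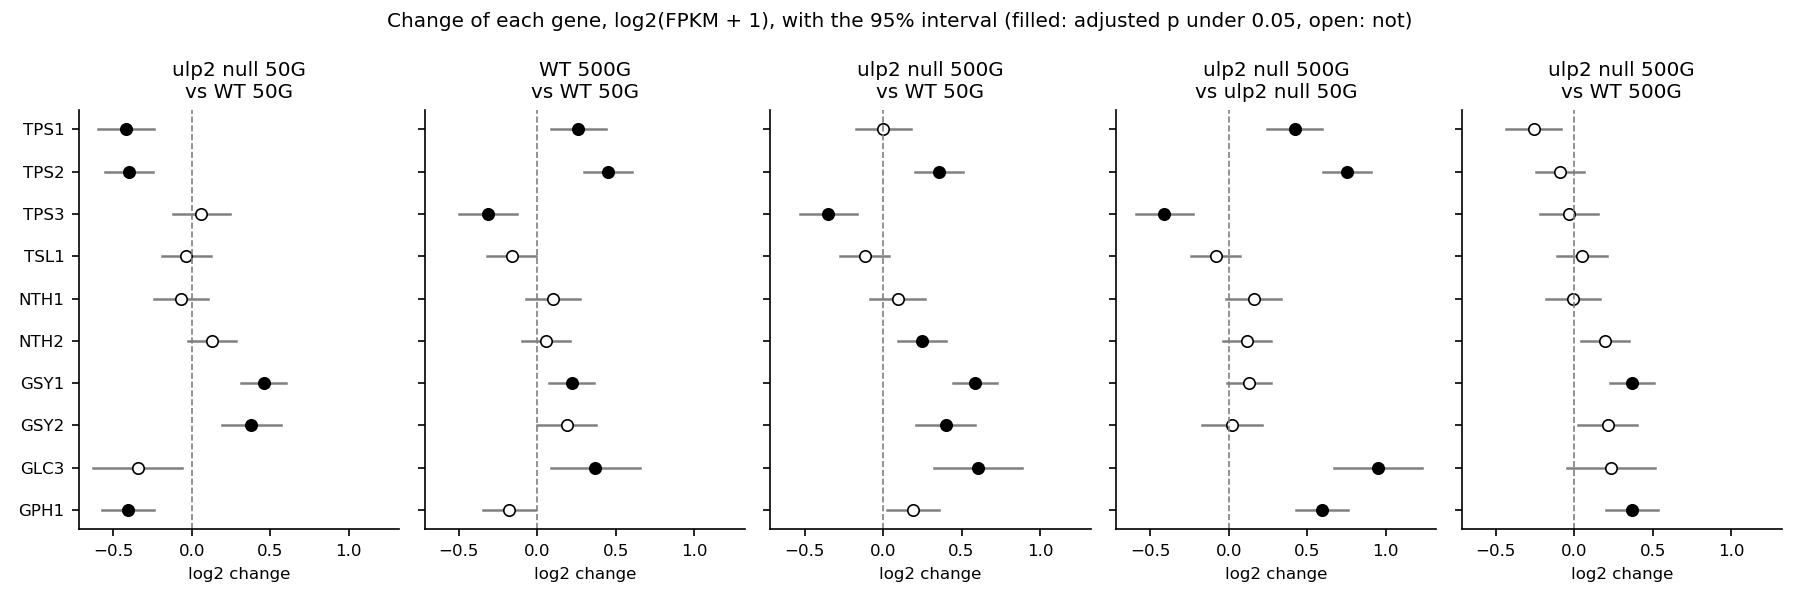
Log2 change of log2(FPKM + 1) on the x axis with its 95% interval (line) for each gene and comparison. Filled points passed the test and open points did not; in the left panel GSY1 (0.46) and GSY2 (0.38) are filled to the right, and TPS1 (-0.42), TPS2 (-0.40) and GPH1 (-0.41) to the left. With libraries scaled to an equal sum, the filled points of TPS1 and GSY1 in the second panel and of NTH2 in the third change side.

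Passaging of WT cells, WT 500G against WT 50G, gave 4 members that rose (TPS1, TPS2, GSY1, GLC3) and 1 that fell (TPS3), where 21.4% of all tested genes rose and 19.2% fell. The median of the 10 log2 changes was 0.14, against 0.0087 for all tested genes. GLC3 rose by 0.37 (SE 0.127, adjusted p = 0.0385) and GSY1 by 0.22 (SE 0.0643, adjusted p = 0.02). GLC3 lost its call in 6 of the refits that left out 1 library, namely WT 500G replicate 1 or 2, WT 50G replicate 2 or 3, ulp2 null 500G replicate 2 and ulp2 null 50G replicate 2, with adjusted p of 0.0502 to 0.13. Without WT 500G replicate 1, TPS1 and GSY1 lost theirs too (adjusted p = 0.079 and 0.0643) and 1 member rose. TPS1 was also lost without WT 50G replicate 2 or 3, and GSY1 without WT 50G replicate 3. The FPKM sums of the libraries differed between passages, and scaling them to an equal sum moved the median log2 change of all genes to -0.34 and the calls to 332 higher and 3119 lower, against 1409 and 1260. None of the 4 genes that rose passed under it. It gave TPS1 -0.10, GSY1 -0.14, TPS2 0.086 and GLC3 0.0060, which are 0.23, 0.19, 0.42 and 0.34 above that median. Relative to the median of all genes, all 10 members kept their sign under this scaling. Taking that median away largely undoes a factor applied to a whole library. Such distances from the median, here and in the other comparisons, therefore do not test the calls.

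Among the 22 further pathway genes 11 rose and 3 fell between the WT passages, where 21.4% of all tested genes rose and 19.2% fell. ATH1, the acid trehalase gene, rose by 1.03 on the log2 scale (SE 0.0558, adjusted p = 3.63e-07) and GIP2, a further Glc7 subunit, by 0.84. GLG1 rose by 0.81 and its paralog GLG2 fell by 0.42. The sporulation glucoamylase gene SGA1 fell by 0.87 and PGM1, a minor phosphoglucomutase gene, by 0.58. Of the regulators 6 rose and 5 fell, with MSN2 and MSN4 among those that fell, by 0.46 and 0.75. Of the stress reporters 7 rose and 0 fell by limma's test, and at an unadjusted p under 0.05 there was 1 lower value, that of HSP78. Their summed level was 67940 to 73180 FPKM in WT 500G and 31560 to 34050 FPKM in WT 50G libraries, and its part in the member changes was not tested.

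Long-passaged cells without Ulp2, ulp2 null 500G against WT 50G, had 5 members that rose and 1 that fell, where 16.1% of all tested genes rose and 17.8% fell. The 3 glycogen synthesis genes rose together, GLC3 by 0.60 (SE 0.127, adjusted p = 0.00456), GSY1 by 0.59 (SE 0.0643, adjusted p = 8.08e-05) and GSY2 by 0.40. TPS2 rose by 0.35 (SE 0.0692, adjusted p = 0.003) and NTH2 by 0.25, and TPS3 fell by 0.35. GPH1 changed by 0.19 (SE 0.0751, adjusted p = 0.0756). Replicate numbers paired these groups by the check used, and with the number as a block GPH1 passed, with the same change and an adjusted p of 0.0361. That block was fitted over all 12 libraries, not over these groups alone. NTH2 lost its call without ulp2 null 500G replicate 1 or WT 50G replicate 3 (adjusted p = 0.0516 and 0.0681). With equal sums the median of all genes was -0.31 and the calls were 364 higher and 2972 lower, against 1058 and 1169, and TPS2 (0.054), GSY2 (0.099) and GLC3 (0.30) also missed the threshold. These lie 0.37, 0.41 and 0.62 above that median.

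Of the further pathway genes 9 rose and 3 fell, with GIP2 at 1.34 (SE 0.0787, adjusted p = 7.38e-07), ATH1 at 0.91 and GLG1 at 0.87 on the log2 scale. GAC1 rose by 0.66, PIG1 by 0.58 and PIG2 by 0.52. SGA1, PGM1 and GLG2 fell by 0.58, 0.46 and 0.24. Of the 14 regulators 4 rose and 4 fell, where 16.1% of all tested genes rose and 17.8% fell. Of the stress reporters 5 rose and 4 fell, and their sum was 47760 to 53030 FPKM in ulp2 null 500G libraries. This comparison, that of ulp2 null 50G and that of WT 500G share the WT 50G libraries, so they are not independent of each other.

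Passaging of cells without Ulp2, ulp2 null 500G against ulp2 null 50G, gave TPS2, TPS3, GLC3 and GPH1 their largest changes of the 5 comparisons between groups. The 4 genes TPS1, TPS2, GLC3 and GPH1 rose and TPS3 fell, where 24.5% of all tested genes rose and 29.7% fell. With equal sums the calls were 751 higher and 3086 lower, against 1607 and 1951, around a median of -0.33. GLC3 (0.66), TPS2 (0.47) and GPH1 (0.31) passed under that scaling too, and TPS1 (0.13, adjusted p = 0.222) did not, at 0.46 above the median. Of the further pathway genes 14 rose and 3 fell. GIP2 rose by 1.19, GAC1 by 1.12, GLG1 by 1.00 and ATH1 by 0.89 on the log2 scale, and GLG2, which had fallen at 50G against WT, rose by 0.77 (SE 0.0693, adjusted p = 6.61e-06). DCS1, SGA1 and PGM1 fell. Of the regulators 8 rose and 4 fell, and SNF1 rose by 0.50 while PSK2 fell by 0.82. Of the stress reporters 7 rose and 4 fell, the fallen ones being the chaperone genes HSP104, HSP42 and HSP78 and the aldehyde dehydrogenase gene ALD3. HSP104 lies on chromosome XII, where the median log2 change was -0.73. HSP26 and HSP12 were among those that rose. The summed level of the reporters was 47760 to 53030 FPKM in ulp2 null 500G and 21270 to 23420 FPKM in ulp2 null 50G libraries.

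At the same late passage the strains differed less. In ulp2 null 500G against WT 500G cells GSY1 and GPH1 rose, by 0.37 each, and 0 members fell, where 4.9% of all tested genes rose and 6.06% fell. Before adjustment, limma's p was also under 0.05 for TPS1 (log2 change -0.26, adjusted p = 0.0633), NTH2 (0.19, adjusted p = 0.104) and GSY2 (0.21, adjusted p = 0.141). GSY1 and GPH1 both missed the threshold when only these groups were fitted (adjusted p = 0.068 and 0.0707). Equal sums gave 329 genes higher and 137 lower, against 322 and 398, and both genes passed there. Of the further pathway genes GIP2 rose, by 0.50, and DCS1 and DCS2 fell, by 0.29 and 0.25. Of the stress reporters 0 rose by limma's test, and 0 were higher at an unadjusted p under 0.05, while 7 fell, among them GRE1 by 1.53, CTT1 by 0.48 and HSP104 by 0.53, and their sum was 47760 to 53030 FPKM in ulp2 null 500G against 67940 to 73180 FPKM in WT 500G libraries. GPH1 and GSY1 were thus higher in the libraries with the lower reporter sum, and the part of either in the other was not tested.

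Whether passage acted differently in the strains was tested as an interaction, the log2 change between passages in ulp2 null cells minus that in WT cells. It was positive for 3 members and negative for 0 by limma's test (also 0 at an unadjusted p under 0.05), where 9.74% of all tested genes were positive and 13.0% negative. GPH1 had the largest value, 0.77 (SE 0.106, adjusted p = 0.000537, 95% interval 0.54 to 1.01), from a change of 0.60 in ulp2 null and -0.18 in WT cells. GLC3 had 0.58 (SE 0.18, adjusted p = 0.0402) and TPS2 0.30 (SE 0.0979, adjusted p = 0.047). GPH1 kept its call in all 19 refits. TPS2 lost its call in 10 and GLC3 in 9 of the 12 refits without 1 library, with adjusted p of 0.0661 to 0.109 and 0.0512 to 0.0962. TPS2 kept it only without ulp2 null 500G replicate 1 or WT 500G replicate 3, and GLC3 only without ulp2 null 50G replicate 1, WT 500G replicate 1 or WT 50G replicate 2. Equal sums gave 728 genes positive and 635 negative, against 640 and 854. For TSL1, NTH1, NTH2, GSY1, TPS1, TPS3 and GSY2 the values ran from -0.17 to 0.16 and none passed.

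**Figure D5:**
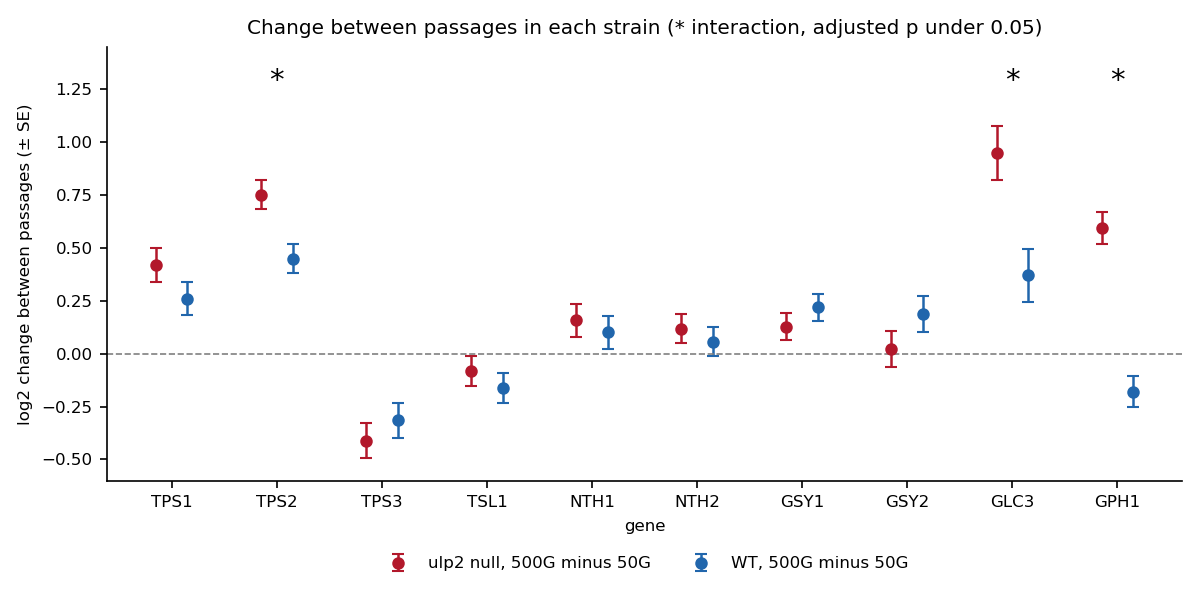
Log2 change between passages (y axis, with SE) of each gene (x axis) in ulp2 null cells (red) and WT cells (blue); stars mark an interaction past the threshold. GPH1 is at 0.60 in ulp2 null and -0.18 in WT cells. With libraries scaled to an equal sum, TPS1 and GSY1 in WT fall below 0, as do NTH1, NTH2 and GSY2 in both strains and GSY1 in ulp2 null cells.

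Over the 12 libraries the genes most like the mean of the 10 standardised profiles, among 5935 non-member genes whose mean FPKM reached 10, were CDC39 (Pearson r = 0.93), NUP133 (0.93), RPO31 (0.91), OXP1 (0.89) and POL2 (0.89). CDC39 averaged 51.0 FPKM in ulp2 null 500G, 31.6 FPKM in ulp2 null 50G, 38.6 FPKM in WT 500G and 30.7 FPKM in WT 50G cells. The 10 genes did not share a profile. Their correlations with each other ran from -0.87 (TPS2 with TPS3) to 0.92 (GSY1 with GSY2), so likeness to the mean is not likeness to each gene. The points share group and library, so r is a description of these 12 libraries.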

How the data were processed

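Yeast RNA was sequenced in 12 libraries, 3 for each of the 4 groups named above. By the study's methods the authors made strand-specific paired-end libraries, trimmed reads and dropped those under 45 bases, mapped them with TopHat2 2.1.1 to the R64 genome, kept reads with a unique location, and ran Cuffdiff of Cufflinks 2.2.1. The methods name total RNA and the labels polyA RNA, and the scaling between libraries is not given in the sources used here. The authors deposited 1 table of FPKM values, normalised for transcript length and mapped fragments. It keeps no counts, so the depth and counting error of each library are unknown. Replicate numbers are those of the sample descriptions.

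Values were tested as log2(FPKM + 1), a scale that understates changes of low genes, with limma 3.58.1 in R 4.3.3 (means of 4 groups, empirical Bayes with a trend) over the 6572 genes whose mean FPKM reached 1. Benjamini-Hochberg adjustment was over these genes, with a threshold of 0.05, and "rose" or "fell" means an adjusted p below it. The study's Cuffdiff test needs alignments and was not run. The code was tested on simulated data. Tables were made with Python 3.11.15 and pandas 2.3.3. Genes were matched to the RefSeq annotation of R64, 6048 by systematic name and 31 by symbol. All 10 genes are named by rule, as are the 5 genes most like them; further pathway genes, regulators and stress reporters are lists of 22, 14 and 12 genes. The regulators in ulp2 null 500G against WT 500G cells are not reported here. The genes and lists were chosen with earlier results of these data known.

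Alternatives were no filter, a filter at a mean FPKM of 10, a pseudocount of 0.1, a fit of the groups compared alone, the replicate number as a block, median-of-ratios and equal-sum scaling, no trend, a threshold of 0.01, and each library left out. Deviations of same-numbered libraries from their group means correlated over 0.1 for all 3 numbers only between ulp2 null 500G and WT 50G (0.14, 0.11 and 0.14), so the number was taken to pair those groups alone. Between ulp2 null 50G and WT 500G the correlations were 0.097, 0.18 and 0.20, so the cutoff of 0.1 decided which groups were taken as paired. Replicate 1 was the highest library in all 4 groups for 822 of the 6572 tested genes (12.5%). What same-numbered libraries share beyond the number was not tested.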

Additional observations from a re-analysis of the deposited data

Results flagged for a closer look

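The change between passages differed between the strains, by the interaction test of limma, for 3 of the 10 genes, all positive, where 9.74% of all tested genes were positive and 13.0% negative. The difference, ulp2 null minus WT, was 0.30 for TPS2 (adjusted p = 0.047), 0.58 for GLC3 (adjusted p = 0.0402) and 0.77 for GPH1 (adjusted p = 0.000537) on the log2 scale. GPH1 kept its call in all 19 refits. TPS2 lost it in 10 of the 12 refits without 1 library (adjusted p = 0.0661 to 0.109), under equal-sum scaling (adjusted p = 0.101) and with no trend (adjusted p = 0.0502). GLC3 lost it in 9 of these 12 (adjusted p = 0.0512 to 0.0962) and with no filter (adjusted p = 0.0536).

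Among the further pathway genes the difference was 1.18 for GLG2 (adjusted p = 3.28e-05), 0.65 for GAC1 (adjusted p = 0.00038), 0.43 for SGA1, 0.38 for PHO85, 0.37 for GDB1, 0.35 for GIP2 and 0.30 for UGP1, which makes the UDP-glucose used by both pathways. It was -0.40 for PIG1 and -0.71 for DCS1 (adjusted p = 0.000366), both on chromosome XII, where the median difference over 511 genes was -0.69. GLG2 averaged 153 ± 11.9 FPKM in ulp2 null 500G, 89.2 ± 0.86 FPKM in ulp2 null 50G, 135 ± 6.3 FPKM in WT 500G and 180.3 ± 8.11 FPKM in WT 50G cells (SD, n = 3 each), so it rose between the passages of ulp2 null cells and fell between those of WT cells.

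Among the regulators the difference was 0.63 for SNF4 (adjusted p = 0.00392), -0.53 for PSK1 (adjusted p = 0.0012) and -0.41 for PSK2 (adjusted p = 0.0176). PSK1 lies on chromosome I, where the median difference over 95 genes was -0.63, and PSK2 on chromosome XV.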

How the results depend on the processing

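Of 26 called changes of the 10 genes over the 6 comparisons, 13 were called with the same sign in every refit and 3 changed sign in at least 1. Over these 10 genes, the comparisons and all alternatives, 1148 of 1250 values kept their direction and their side of the threshold. Of the rest, 54 lost a call, 22 gained one and 26 changed sign.

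Equal-sum scaling changed most. It gave 0 members higher and 4 lower in WT 500G against WT 50G with a member median of -0.22 (all genes 5.05% and 47.4%), 1 and 3 in ulp2 null 500G against WT 50G with a median of -0.079 (5.54% and 45.2%), and 3 lower in ulp2 null 500G against ulp2 null 50G with a median of -0.14 (46.9%); the interaction median was 0.15. Signs turned in WT 500G against WT 50G for TPS1 (-0.10), NTH1 (-0.26), NTH2 (-0.30), GSY1 (-0.14) and GSY2 (-0.18). They turned in ulp2 null 500G against WT 50G for TPS1 (-0.30), NTH1 (-0.21), NTH2 (-0.046) and GPH1 (-0.11), and against ulp2 null 50G for NTH1 (-0.13), NTH2 (-0.16), GSY1 (-0.16) and GSY2 (-0.27). Against WT 500G they turned for TPS3 (0.027) and NTH1 (0.053). By construction this scaling lowers libraries with a large FPKM sum, and sums ran from 1365930 to 1539386 at 500G and from 1083961 to 1198357 at 50G. Median-of-ratios scaling turned the sign of NTH1 in ulp2 null 500G against WT 500G (0.023).

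With only the 2 groups compared in the fit, 2 members rose in WT 500G against WT 50G, near the 19.3% of all genes in that fit, and 0 in ulp2 null 500G against WT 500G (0.953% of all genes), from fewer samples. At a threshold of 0.01, 1 rose and 0 fell in WT 500G against WT 50G (all genes 13.6% and 11.7%), 1 rose in ulp2 null 500G against WT 500G (1.8%) and 1 was positive in the interaction (5.13%).

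With the replicate number as a block, 2 members fell in WT 500G against WT 50G (all genes 23.8%), 4 rose and 1 fell in ulp2 null 500G against WT 500G (8.66% and 13.0%), and GLC3 in ulp2 null 50G against WT 50G had an adjusted p of 0.000493. The correlation check did not pair the samples of these comparisons, and whether they share more than a number is unknown. Over all genes the block gave more calls in each of them. In ulp2 null 500G against WT 500G it gave 569 higher and 856 lower, against 322 and 398. The block ended no call of a member.

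Leaving out 1 library gave 1 to 5 members higher and 1 to 2 lower in WT 500G against WT 50G (all genes 16.8% to 23.2% and 14.5% to 21.0%), and 1 to 2 positive in the interaction against 3 (7.56% to 10.4%). It spread TPS3 in ulp2 null 50G against WT 50G from -0.020 to 0.12, TPS1 in ulp2 null 500G against WT 50G from -0.040 to 0.054, GSY2 in ulp2 null 500G against ulp2 null 50G from -0.0098 to 0.079, and in ulp2 null 500G against WT 500G TSL1 from -0.0060 to 0.12 and NTH1 from -0.057 to 0.077. None of these 5 passed the test. The cause of these movements was not tested.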
